A study of Mus musculus with 2 samples.

Results

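The 9 genes studied here in mouse ES cells are the *Lin28* pair, let-7 targets and oncofetal RNA binders, namely *Lin28a*, *Lin28b*, *Hmga1*, *Hmga2*, *Igf2bp1*, *Igf2bp2*, *Igf2bp3*, *Trim71* and *Arid3a*. They were chosen by name, as the *Lin28* pair and genes known to be repressed by let-7, and all 9 were found by their Ensembl identifiers among the 54146 rows of each count table. The choice was made with earlier results of these data known. The data were 2 inDrop libraries, 1 of wild-type ES cells, labelled untreated, and 1 of *Lin28a* knockout ES cells. Both cultures were ICM-derived and were kept for 2 days in LIF/2i medium on gelatin with feeder fibroblasts, and each genotype was 1 clone. The wild-type clone had itself been transfected, and the knockout clone was picked after Cas9 had been directed to the second exon of *Lin28a*. inDrop isolates cells in droplets, tags the 3′ ends of their mRNAs with a cell barcode and gives every molecule its own identifier (UMI), so that a count is a number of molecules and was not divided by gene length.

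LIN28A and LIN28B are RNA-binding proteins with a cold shock domain and zinc knuckles, and they bind precursors of the let-7 microRNA family and block their maturation. Mature let-7 in turn represses mRNAs whose 3′UTRs pair with its seed, among them those of *Lin28a* and *Lin28b* themselves, so that the proteins and the microRNA oppose each other. The IGF2BP proteins bind mRNAs through KH domains and can stabilize them, HMGA1 and HMGA2 are chromatin proteins with AT hooks, TRIM71 is an RNA-binding ubiquitin ligase of early embryos, and ARID3A is a transcription factor that binds AT-rich DNA.

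The let-7 sequences are shown because the seed, bases 2 to 8 from the 5′ end and printed in capitals, is what joins these microRNAs into 1 family (RefSeq, GRCm38.p6). Of the 11 distinct mature sequences listed, 10 shared the seed GAGGUAG and 1, let-7j, had GAGGUAU.
let-7a: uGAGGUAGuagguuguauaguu
let-7d: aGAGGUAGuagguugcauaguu
let-7e: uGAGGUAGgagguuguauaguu
let-7g: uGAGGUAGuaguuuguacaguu
let-7i: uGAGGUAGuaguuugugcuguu
miR-98: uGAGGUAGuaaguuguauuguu
let-7j: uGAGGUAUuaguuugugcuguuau

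The complement of that seed was searched in the longest annotated 3′UTR of each gene, on the mRNA strand, either as 7 bases (CTACCTC) or as 8 bases with a following A (CTACCTCA, which contains the 7). The 8-base site was found in 8 of the 9 genes, against 3.06% of 21037 genes with a 3′UTR, and the 7-base match in 9 of 9, against 9.02%. These genes were chosen as let-7 targets, so their share is a description. *Trim71* held 4 of the 8-base sites, *Igf2bp1* 3 and *Lin28a* 2, while *Hmga1* held a 7-base match alone. The sites below are a selection that covers all 9 genes, 22 bases each as the mRNA reads, with the seed match in capitals (GRCm38). They were not ranked by any measure, and further sites of *Igf2bp1*, *Trim71* and other members are not printed.
*Lin28a*, chr4:134005189-134005210, minus strand: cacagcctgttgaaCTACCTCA
*Lin28a*, chr4:134004551-134004572, minus strand: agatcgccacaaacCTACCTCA
*Lin28b*, chr10:45381022-45381043, minus strand: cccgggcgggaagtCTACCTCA
*Hmga1*, chr17:27563278-27563299, plus strand: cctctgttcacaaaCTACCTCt
*Hmga2*, chr10:120364224-120364245, minus strand: ccgacattcaatttCTACCTCA
*Igf2bp1*, chr11:95961778-95961799, minus strand: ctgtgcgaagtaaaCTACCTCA
*Igf2bp2*, chr16:22059473-22059494, minus strand: cacacaaataaaagCTACCTCA
*Igf2bp3*, chr6:49086787-49086808, minus strand: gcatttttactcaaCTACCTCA
*Trim71*, chr9:114509047-114509068, minus strand: ttagtatggattttCTACCTCA
*Trim71*, chr9:114509021-114509042, minus strand: tggcaaaaagttgtCTACCTCA
*Arid3a*, chr10:79953896-79953917, plus strand: aggcaagtttctttCTACCTCA
All of these lie in the 3′UTR of the gene named, and a match of letters does not show that let-7 binds there. The microRNAs themselves were not measured in these libraries, whereas the paper measured let-7 by qRT-PCR in the same clones.

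Barcodes with at least 500 UMIs and at most 20% of them on mitochondrial genes were kept as cells. Feeder fibroblasts were set apart as cells with at least 0.3% of their UMIs on *Col1a1*, *Col1a2* and *Col3a1*, and the remaining cells are called ES cells. The genotype of the feeders is not given in the sources used here, so wild-type and knockout fibroblasts below name the library alone. This gave 1808 wild-type ES cells with 11207628 UMIs in all (median 6112 per cell) and 1599 knockout ES cells with 9225733 (median 5072), beside 48 and 23 fibroblasts. All 10 ES markers were present in the ES cells of both libraries, with summed levels of 4857 and 4908 CPM (UMIs of a gene scaled to 1e6 in all). The 12 fibroblast markers that the rule did not use summed to 18655 and 13542 CPM in the fibroblasts and to 981 and 959 CPM in the ES cells, of which *Fn1*, *Sparc* and *Vim* made up most. With 1 library for each genotype there is no replicate and no test. The intervals below are exact 95% intervals (Poisson for CPM, binomial for shares of cells) and cover counting error only. Those of CPM and of ratios treat UMIs as independent and leave out variation between cells. Genotype cannot be told apart from any other difference between the cultures. Cell barcodes are running numbers in both tables, so barcodes common to the libraries could not be counted.

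In ES cells the 9 genes spanned more than 2 orders of magnitude, from *Igf2bp1* and *Hmga1* at the top to *Lin28b* at the bottom. In the wild-type library the order was *Igf2bp1* (818 CPM, interval 801 to 835), *Hmga1* (751), *Trim71* (368), *Igf2bp3* (251), *Lin28a* (111), *Igf2bp2* (54.3), *Hmga2* (29.6), *Arid3a* (21.3) and *Lin28b* (3.57), and no neighbours had intervals that overlapped. In the knockout library *Hmga1* stood first and *Igf2bp1* second, *Lin28a* and *Igf2bp2* had overlapping intervals, and so had *Arid3a* and *Hmga2*. *Lin28a*, *Hmga2* and *Igf2bp2* were lower in the knockout library by more than 1.5-fold, *Hmga1* was slightly higher, and the other members lay between.

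**Figure D1:**
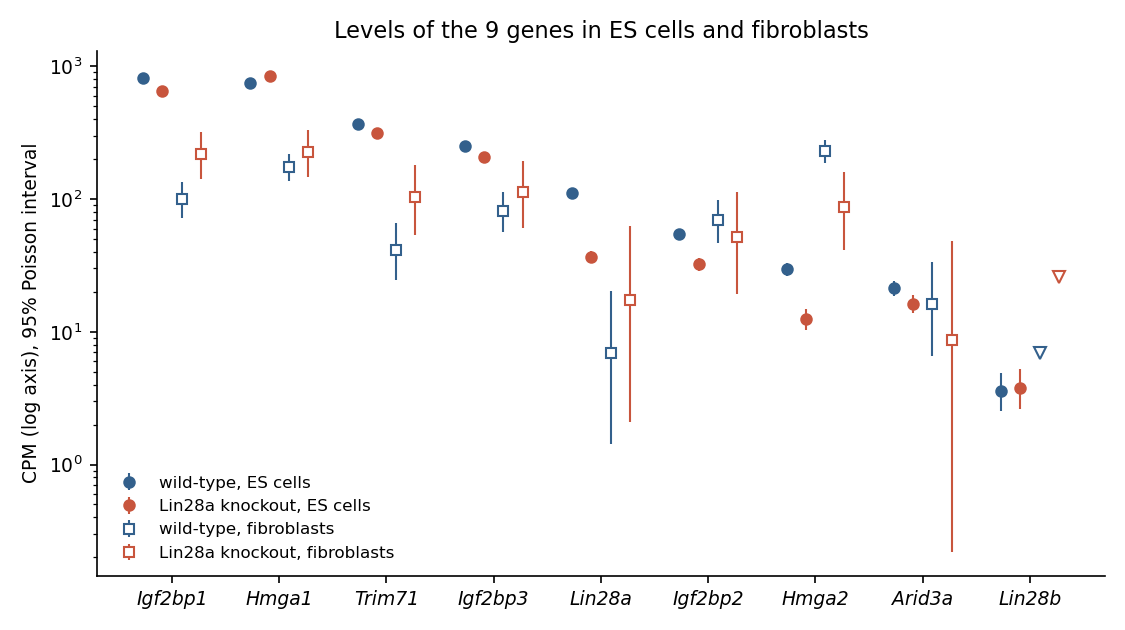
Level of each gene in CPM on a log axis, in ES cells (filled circles) and fibroblasts (open squares) of the wild-type (blue) and knockout (red) library, with exact 95% Poisson intervals. Triangles mark the limit of 3 counts where no UMI was found. *Hmga2* stood higher in fibroblasts than in ES cells of the same library, and *Lin28a* in ES cells was at 111 CPM for wild-type and at 36.9 CPM for knockout.

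*Lin28a* (ENSMUSG00000050966.9) lies on the minus strand of chromosome 4, at chr4:134003330-134018841. It had 1239 UMIs in wild-type and 340 in knockout ES cells, or 111 CPM (104 to 117) and 36.9 CPM (33.0 to 41.0). The ratio of knockout over wild-type was 0.333 (interval 0.295 to 0.376), and 0.205% of the 12223 genes with at least 100 UMIs in all had a lower ratio. Of wild-type ES cells 43.8% carried it, and of knockout ES cells 15.7%, or 5.24% and 1.83% with each cell thinned to 500 UMIs. At least 3 UMIs were found in 109 wild-type cells and in 16 knockout cells. The primers capture the 3′ end of the transcript, outside the exon that Cas9 was directed to, so these UMIs do not check the deletion itself.

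Feeder fibroblasts, which should lack *Lin28a*, were taken as a measure of UMIs found in cells that do not express it. Among wild-type fibroblasts 3 of 48 held a *Lin28a* UMI (6.25%, median depth 8131.5 UMIs), and among knockout fibroblasts 2 of 23 (8.70%, median depth 2295), or 6.95 and 17.4 CPM. Wild-type ES cells were 15.9-fold above the fibroblasts on these 3 UMIs (5.43 to 77.2), and 7.05-fold (3.41 to 17.6) with fibroblasts defined at 0.1% collagen UMIs. In the knockout library the ratio was 2.12 with an interval of 0.583 to 17.6, so at this depth the level left in knockout ES cells could not be told from that in fibroblasts. Barcodes under 500 UMIs, a mixture of free RNA and shallow cells, stood at 248 and 93.6 CPM, and how much such RNA adds to an ES cell was not tested.

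*Lin28b* (ENSMUSG00000063804.8, chromosome 10) was close to the limit of detection in both genotypes. It had 40 UMIs in 40 wild-type cells, 3.57 CPM (2.55 to 4.86), and 35 UMIs in 31 knockout cells, 3.79 CPM (2.64 to 5.28). The ratio was 1.06 (0.656 to 1.72), an interval that includes differences of more than 1.5-fold in either direction. No UMI was found in fibroblasts, which (at a limit of 3 counts) allows up to 6.95 CPM for wild-type and 26.1 CPM for knockout, above the level of the ES cells.

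*Hmga1* and *Hmga2*, whose proteins both bind DNA through AT hooks, went in opposite directions over all ES cells. *Hmga1* (ENSMUSG00000046711.16, chromosome 17) had 8418 and 7824 UMIs, or 751 CPM (735 to 767) in wild-type and 848 CPM (829 to 867) in knockout ES cells, a ratio of 1.13 (1.09 to 1.16) that 62.2% of all genes fell below. The near-identical *Hmga1b* had 2767 and 2485 UMIs, and reads may be split between the copies, so the value of *Hmga1* alone is uncertain. The sum of both copies gave a ratio of 1.12 (1.09 to 1.15). On the opposite strand *Hmga1* overlaps *AI413582* (174 and 196 UMIs) and *Gm49774* (211 and 169), and whether strand was used in counting is not given in the sources used here. *Hmga2* (ENSMUSG00000056758.14, chromosome 10) had 332 and 115 UMIs, or 29.6 CPM (26.5 to 33.0) in wild-type and 12.5 CPM (10.3 to 14.96) in knockout ES cells. It was 2.38-fold lower in the knockout library (1.92 to 2.96), with 0.589% of genes below it, and was detected in 14.5% and 6.25% of cells.

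The *Igf2bp* genes were all lower in the knockout library, to different degrees. *Igf2bp1* (ENSMUSG00000013415.9, chromosome 11), the most abundant of them, had 9167 and 5981 UMIs, or 818 CPM and 648 CPM (632 to 665), a ratio of 0.793 (0.767 to 0.819). *Igf2bp2* (ENSMUSG00000033581.17, chromosome 16) had 609 and 298 UMIs, or 54.3 CPM (50.1 to 58.8) and 32.3 CPM (28.7 to 36.2), and was 1.68-fold lower (1.46 to 1.94). *Igf2bp3* (ENSMUSG00000029814.10, chromosome 6) had 2809 and 1931 UMIs, or 251 CPM and 209 CPM, a ratio of 0.835 (0.788 to 0.885). Over all ES cells the interval of *Igf2bp2* lay below those of its relatives, but among cells of 5000 to 10000 UMIs, at 0.637 (0.513 to 0.785), it overlapped those of *Igf2bp1* at 0.749 (0.713 to 0.786) and *Igf2bp3* at 0.775 (0.709 to 0.846). *Igf2bp3* overlaps *Malsu1* on the opposite strand, which had 796 and 635 UMIs, with the same doubt about strand. UMIs counted as ambiguous with another gene were at most 3 per member and library.

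*Trim71* (ENSMUSG00000079259.2, chromosome 9), the gene with the most 8-base sites among the 9, had 4122 and 2910 UMIs, or 368 CPM (357 to 379) in wild-type and 315 CPM (304 to 327) in knockout ES cells, a ratio of 0.858 (0.818 to 0.900). *Arid3a* (ENSMUSG00000019564.12, chromosome 10) had 239 and 150 UMIs, or 21.3 CPM (18.7 to 24.2) and 16.3 CPM (13.8 to 19.1), a ratio of 0.762 (0.617 to 0.939). Both were lower in the knockout library by less than 1.5-fold.

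Of the 9 genes, 8 had at least 100 UMIs over both libraries, and 3 of these were at least 1.5-fold lower in the knockout library, against 7.78% of all 12223 genes so compared. *Lin28a*, the gene knocked out, is among the 3. None was at least 1.5-fold higher, against 8.87% of all genes. These shares depend on the genes compared. Of the 6127 genes with at least 500 UMIs, 515 were lower and 265 higher, and of genes with a 3′UTR 7.33% were lower and 6.44% higher. With median of ratios scaling *Lin28a*, *Hmga2* and *Igf2bp2* were again the members past the limit on the lower side, and none was on the higher. Of all genes 9.83% were then lower and 6.84% higher, so the balance of all genes turned. Counting intervals lay below 1 for 7 members and above 1 for *Hmga1*, as they did for 24.2% and 28.7% of all genes. Whether an interval excludes 1 depends on the UMI count, and these shares were not matched for it. The median log2 ratio of the 8 was -0.36, while that of all genes was 0.06, and scaling by the median of ratios in place of the total shifted every log2 ratio by 0.06 and turned no direction among the 9.

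**Figure D2:**
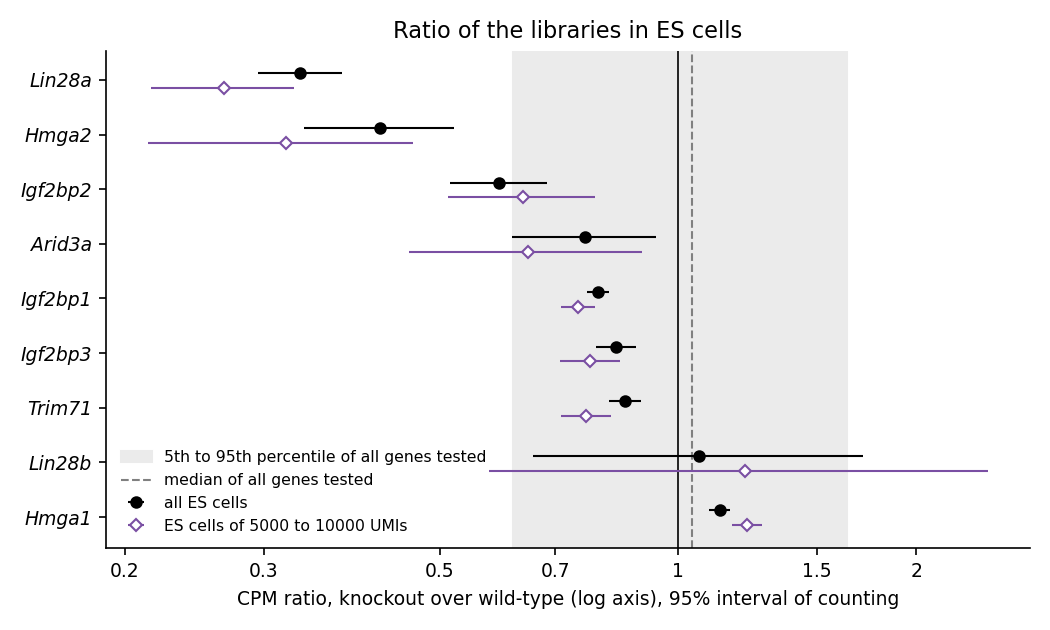
Ratio of CPM in knockout over wild-type ES cells on a log axis, with exact 95% intervals of counting, for all ES cells (black circles) and for those of 5000 to 10000 UMIs (open diamonds). The grey band spans the 5th to 95th percentile of all 12223 genes over all ES cells, 0.619 to 1.64, and the dashed line marks their median. Among cells of 5000 to 10000 UMIs that range was 0.531 to 1.66 over 9787 genes and is not drawn. Over all ES cells *Lin28a*, *Hmga2* and *Igf2bp2* lay to the left of the band, and in cells of 5000 to 10000 UMIs *Lin28a* and *Hmga2* lay below the range of that class.

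The libraries differed in depth, so ratios were also taken between cells of like depth. Between 5000 and 10000 UMIs, with 1023 wild-type and 501 knockout cells, *Lin28a* had a ratio of 0.267 (0.216 to 0.327), *Hmga2* of 0.320 (0.214 to 0.463) and *Igf2bp2* of 0.637 (0.513 to 0.785). *Igf2bp1*, *Igf2bp3*, *Trim71* and *Arid3a* had ratios from 0.647 to 0.775, and *Hmga1* of 1.22 (1.17 to 1.28). *Lin28a*, *Hmga2*, *Igf2bp2* and *Arid3a* were at least 1.5-fold lower in these cells, as were 14.4% of the 9787 genes with at least 100 UMIs in them, while 9.41% were at least 1.5-fold higher. In cells over 10000 UMIs *Lin28a* had a ratio of 0.378 and *Hmga2* of 0.423. There *Trim71* at 0.996 (0.910 to 1.09), *Hmga1* at 0.973 (0.919 to 1.03) and *Arid3a* at 0.779 (0.543 to 1.12) did not differ beyond counting error. Nor did *Lin28b*, at 0.570 (0.230 to 1.43). In cells of 500 to 2000 UMIs, which numbered 208 and 502, *Hmga1* had a ratio of 1.64 (1.27 to 2.15), and the intervals of *Igf2bp1*, *Igf2bp3*, *Trim71* and *Arid3a* included 1.

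The *Hmga* pair went in opposite ways with the share of a cell's UMIs that came from 82 ribosomal protein (RP) genes. In wild-type ES cells *Hmga1* stood at 159 CPM in cells under 5% RP share, at 633 CPM from 5 to 10% and at 920 CPM from 10% up. *Hmga2* went from 92.5 CPM through 39.5 to 15.2 CPM over the same classes. In knockout ES cells *Hmga1* went from 211 CPM through 750 to 957 CPM, and *Hmga2* from 60.7 CPM through 19.5 to 4.44 CPM. The *Igf2bp* genes were likewise lower from 10% up in wild-type cells, where *Igf2bp3* had 436, 272 and 218 CPM over the classes, *Igf2bp2* 79.3, 63.4 and 41.6 CPM and *Igf2bp1* 912, 880 and 732 CPM. *Trim71* had 330, 436 and 277 CPM, while *Arid3a* there had 26.4, 21.4 and 21.1 CPM (the first on 2 UMIs) with overlapping intervals and *Lin28a* had 106, 125 and 90.5 CPM, in no steady order. The classes held 83, 979 and 746 wild-type and 224, 475 and 900 knockout cells, and the cells under 5% were shallow, with median depths of 789 and 1214.5 UMIs. Wild-type values under 5% rested on 12 *Hmga1*, 7 *Hmga2*, 8 *Lin28a* and 6 *Igf2bp2* UMIs. There the interval of *Hmga2*, 37.2 to 191 CPM, included its level from 5 to 10%. That of *Igf2bp2*, 29.1 to 173 CPM, included its levels in both other classes.

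*Lin28a*, *Hmga2*, *Igf2bp2*, *Igf2bp3* and *Arid3a* were lower in the knockout library at every RP share. Of these, *Lin28a* alone had an interval below 1 under 5%, and that of *Arid3a* from 5 to 10% included 1 too. *Lin28a* had ratios of 0.242 (0.0791 to 0.739), 0.399 (0.339 to 0.469) and 0.309 (0.255 to 0.374) from the lowest to the highest class. *Hmga2* had 0.656 (0.264 to 1.85), 0.495 (0.376 to 0.644) and 0.292 (0.174 to 0.472). *Igf2bp2* had 0.443 (0.150 to 1.46), 0.654 (0.540 to 0.789) and 0.612 (0.487 to 0.767). *Hmga1* had 1.33 (0.713 to 2.70), 1.19 (1.13 to 1.24) and 1.04 (0.998 to 1.08). *Igf2bp1* was higher in the knockout library in cells under 5% RP share, at 1301 against 912 CPM, a ratio of 1.43 (1.10 to 1.87), and lower from 10% up, at 546 against 732 CPM, a ratio of 0.746 (0.710 to 0.784). *Trim71* did the same, with 575 against 330 CPM under 5%, a ratio of 1.74 (1.14 to 2.76), and a ratio of 0.870 (0.805 to 0.941) from 10% up. In knockout cells under 5% RP share these values rested on 407 *Igf2bp1* and 180 *Trim71* UMIs, and in wild-type cells on 69 and 25. The part of RP share in the ratios over all ES cells was not tested beyond leaving those cells out, which left *Igf2bp1* at 0.765.

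**Figure D3:**
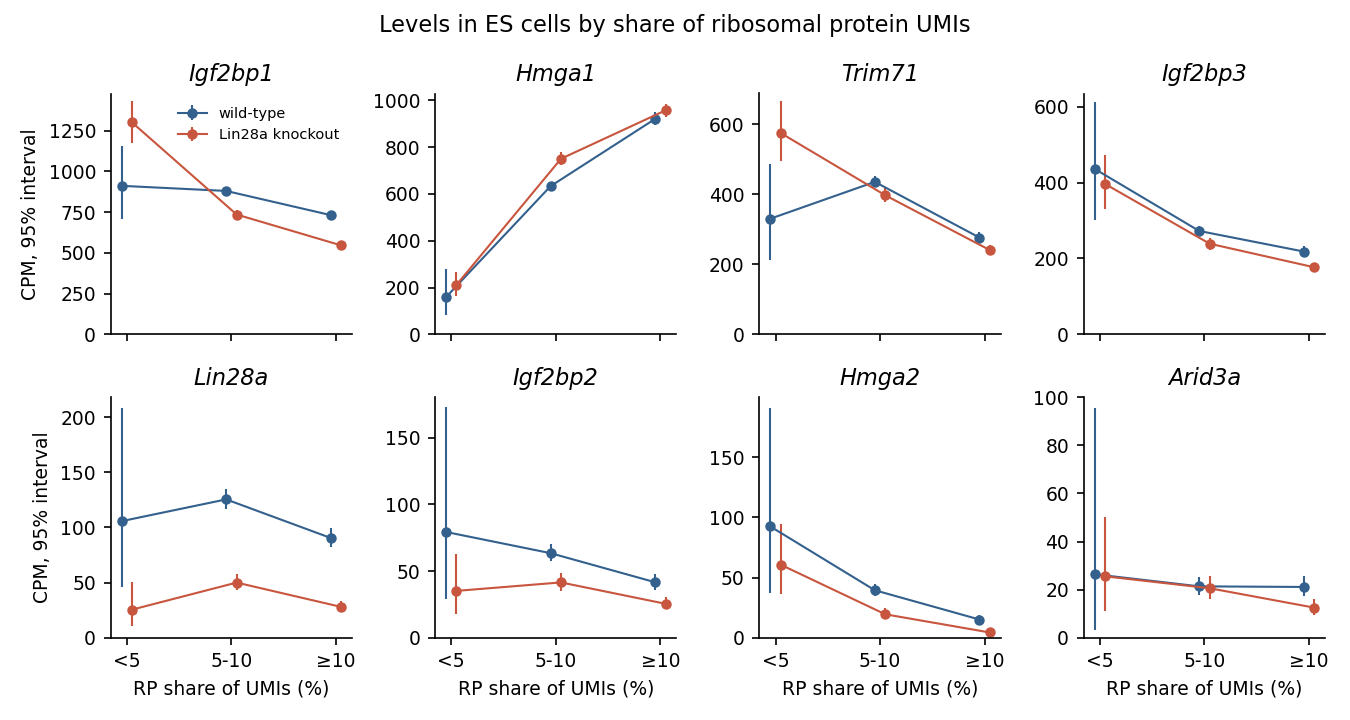
Level in CPM with exact 95% Poisson intervals, from 0 on each axis, in wild-type (blue) and knockout (red) ES cells of 3 classes of RP share. *Lin28b* is left out for its few UMIs. In wild-type cells *Hmga1* rose with RP share from 159 to 920 CPM and *Hmga2* fell from 92.5 to 15.2 CPM, the first values on 12 and 7 UMIs. The lines of *Igf2bp1* and *Trim71* cross.

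Fibroblasts differed from ES cells in which members they carried. *Hmga2* was the member that stood furthest above ES cells in fibroblasts. It had 99 UMIs in 48 wild-type cells, 229 CPM (186 to 279), which is 7.74-fold above the ES cells of that library (6.12 to 9.72). In the knockout library its 10 fibroblast UMIs gave 86.9 CPM (41.7 to 160), 6.97-fold above the ES cells (3.25 to 13.3). Within fibroblasts *Hmga2* was lower in the knockout library as well, with a ratio of 0.379 (0.176 to 0.726) beside 0.421 (0.337 to 0.522) in ES cells. Without 1 knockout fibroblast of 22723 UMIs, described below, the ratio in fibroblasts was 0.472 (0.219 to 0.905). *Igf2bp2* stood at 69.5 CPM (46.9 to 99.2) in wild-type fibroblasts against 54.3 CPM in ES cells, and its ratio of 1.28 (0.856 to 1.84) did not differ from 1 beyond counting error.

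*Hmga1*, *Igf2bp1*, *Igf2bp3* and *Trim71* were higher in ES cells of both libraries beyond counting error, and *Lin28a* in the wild-type library. *Arid3a* had ratios of ES cells over fibroblasts of 1.31 (0.628 to 3.31) and 1.87 (0.331 to 74.4), which did not differ from 1 beyond counting error. As a measure of ES cell transcripts found in fibroblasts, 9 ES markers were used (those of the list other than *Klf4*, which fibroblasts express). They reached 3.50 to 13.3% of their ES level in wild-type fibroblasts, and whether as free RNA or in mixed cells was not tested. *Lin28a* at 6.29%, *Trim71* at 11.3% and *Igf2bp1* at 12.2% lay in this range, and *Hmga1* at 23.1% (18.2 to 29.0) and *Igf2bp3* at 32.4% (22.5 to 45.1) lay above it. The range is one of point values, and the interval of the marker *Tfcp2l1*, 7.62 to 21.7%, overlapped that of *Hmga1*. *Arid3a* at 76.1% rested on 7 fibroblast UMIs. With a collagen limit of 1% the markers reached 0 to 5.88%. *Hmga1* fell to 12.1% (8.13 to 17.5), above these values, but its interval overlapped that of *Nanog* (1.91 to 13.7%). *Igf2bp3* at 30.2% (19.3 to 45.0) was above them too. In knockout fibroblasts the markers ranged from 3.11 to 29.7%, *Hmga1* at 26.6% lay within that range, and *Igf2bp1* (33.5%, 21.7 to 49.5), *Trim71* (33.0%, 17.1 to 57.8) and *Igf2bp3* (54.0%, 28.7 to 92.5) lay above it with intervals that reach into it. *Lin28a* at 47.1% (5.69 to 172) rested on 2 UMIs and *Arid3a* at 53.4% on 1. Of the 25 *Igf2bp1*, 12 *Trim71* and 13 *Igf2bp3* UMIs of knockout fibroblasts, 13, 7 and 7 came from 1 cell of 22723 UMIs, which also held 38 UMIs of these ES markers. With a limit of 1% *Igf2bp1* at 4.24% and *Trim71* at 4.36%, on 2 and 1 UMIs, lay within the markers' range of 0 to 9.60% in that library. *Hmga1* at 19.5% (10.1 to 34.1) and *Igf2bp3* at 32.9% (10.7 to 76.8), on 12 and 5 UMIs, lay above it. Both intervals overlapped that of the marker *Esrrb* (1.16 to 34.7%).

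Within each library, cells with and without a *Lin28a* UMI were compared at like depth. Among wild-type ES cells of 5000 to 10000 UMIs, 516 had a *Lin28a* UMI and 507 had none. *Trim71* stood at 394 CPM (374 to 415) in the former and at 348 CPM (329 to 368) in the latter, *Igf2bp1* at 841 (812 to 871) and 784 CPM (755 to 813), and *Igf2bp2* at 56.9 (49.5 to 65.1) and 44.6 CPM (37.9 to 52.1). *Trim71* had intervals that did not meet, while those of *Igf2bp1* and *Igf2bp2* met at their ends and those of *Hmga1*, *Igf2bp3* and *Hmga2* (31.8 and 24.7 CPM) overlapped. The median depths were 7176 and 6668 UMIs, and the part of depth in these differences was not tested. Variation between cells is not in these intervals. Among knockout ES cells of like depth, 86 with and 415 without a *Lin28a* UMI, *Igf2bp3* stood at 253 (216 to 294) and 178 CPM (163 to 194), and *Trim71* at 320 (279 to 366) and 277 CPM (258 to 297), so that *Igf2bp3* and not *Trim71* had intervals that did not meet there. The difference between the libraries in this was not tested.

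Over the same 1023 cells the genes whose levels went most with *Lin28a* were *Set*, *Cpsf6*, *Ptma*, *Gsr* and *Topors*, with Pearson's r from 0.142 to 0.175 among 5017 genes, of which the lowest had -0.163. Such values in sparse counts are weak and are given as a description of 1 library. Among pairs of members the highest r was that of *Igf2bp1* and *Trim71*, 0.146 over these wild-type cells and 0.338 over the 501 knockout cells of like depth. The lowest in both libraries was that of *Hmga1* and *Trim71*, -0.187 and -0.137, which in the wild-type library was further from 0 than any other pair. The cells of each value share a library and a range of depth, and in both libraries *Igf2bp1* and *Trim71* stood higher in cells of 5 to 10% RP share than in those from 10% up.

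Further genes known as let-7 targets were compared as a list. Of 25 genes, 24 had at least 100 UMIs, and 6 of these were at least 1.5-fold lower in the knockout library and 0 higher, against 7.78% and 8.87% of all genes. Of genes with a 3′UTR 7.33% were lower and 6.44% higher. The median log2 ratio of the list was -0.36. *E2f5*, a transcription factor of the E2F family, was 1.93-fold lower (24.7 against 12.8 CPM). *Bach1*, a transcriptional repressor of heme and redox genes, was 1.83-fold lower (59.2 against 32.3 CPM), and *Tgfbr1*, a receptor of TGF-beta, 1.72-fold lower on 173 and 83 UMIs. *Cdc25a*, a phosphatase that activates cyclin-dependent kinases, was 1.64-fold lower (202 against 123 CPM), the helicase gene *Smarcad1* 1.58-fold and *Plagl2* 1.51-fold. *Ccnd1* at 0.673 lay just inside the limit. *Hras* (1.38) and *Ccnd2* (1.35) had the highest ratios of the list.

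Of 14 genes that process let-7, 1 was at least 1.5-fold lower, against 7.78% of all genes, namely *Syncrip*, an hnRNP-like RNA binder, at 351 against 213 CPM, and 0 were higher, with a median log2 ratio of -0.19. *Ago2*, the slicing Argonaute, lay just inside the limit (353 against 237 CPM, 1.49-fold lower), and *Dgcr8*, the partner of DROSHA, had a ratio of 0.718 (0.587 to 0.877). The uridylyl transferases *Tut4* and *Tut7*, which LIN28A recruits to let-7 precursors, had ratios of 0.838 (0.738 to 0.950) and 0.797 (0.711 to 0.893).

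Of 15 other mRNA binders, with KH domains or similar roles, 13 had a ratio under 1, as 44.0% of all genes had. At least 1.5-fold lower were 5 and higher 0, against 7.78% and 8.87% of all genes, with a median log2 ratio of -0.32. Of genes with a 3′UTR 7.33% were lower and 6.44% higher. *Khdrbs1*, a KH-domain splicing regulator, stood lowest at 164 against 81.7 CPM, 2.00-fold lower (interval of the ratio 0.458 to 0.543), followed by *Fxr1* (1.62-fold), *Fmr1* (1.59-fold) and, further down, *Qk* (1.51-fold). Of 4 cold shock domain genes 0 passed 1.5-fold, with *Ybx3* at 0.771 and *Carhsp1* at 1.21. Of 6 other HMG and TRIM genes 0 passed it either, and *Hmgb1*, *Hmgn1* and *Hmgn2*, which share the HMG name and not the AT hooks, had ratios from 0.816 to 0.938. Among the 10 ES markers, *Sox2* was 1.76-fold lower and the others were within 1.5-fold. *Dnmt3b*, one of the primed epiblast genes, stood at 0.675. Of the fibroblast markers 6 could be compared and 0 passed 1.5-fold, of the primed epiblast genes 0 of 2, and no primitive endoderm gene had 100 UMIs.

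**Figure D4:**
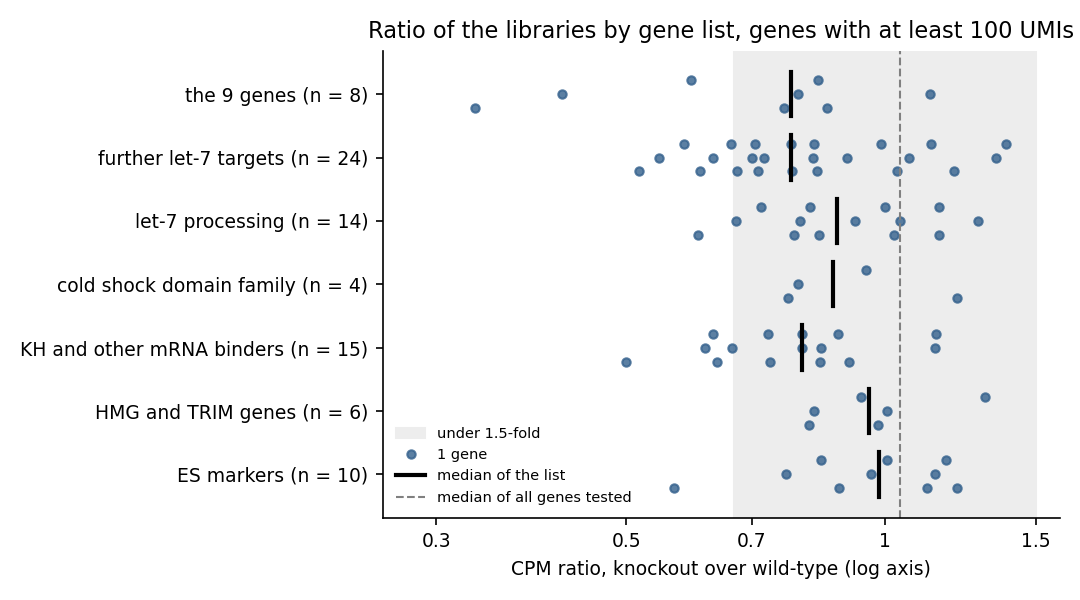
Ratio of CPM in knockout over wild-type ES cells on a log axis, 1 point for each gene with at least 100 UMIs over both libraries, by list, with the median of each list as a bar. The grey band marks ratios under 1.5-fold and the dashed line the median of all genes. The 9 genes, the further let-7 targets, the let-7 processing genes, the KH and other mRNA binders and the ES markers reached left of the band, and no gene lay right of it.

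Genes with let-7 seed matches as a whole differed from other genes by little. Among 9661 compared genes with a 3′UTR, 363 had an 8-base site, and their median log2 ratio was -0.03 against 0.02 for all of them. At least 1.5-fold lower were 8.26% of the genes with a site and 7.33% of all, and at least 1.5-fold higher 3.86% and 6.44%. Genes with a site had longer 3′UTRs (median 2797 against 1230 bases), and among 3′UTRs of 2000 bases or more the medians were -0.09 with and -0.06 without a site. Of these long 3′UTRs 9.48% with and 9.13% without a site were at least 1.5-fold lower, and 3.88% and 4.21% were higher. The 19 genes with 2 or more 8-base sites, of which *Lin28a*, *Igf2bp1* and *Trim71* are 3, had a median of -0.12. Among the compared genes, those with at least 100 UMIs, the most 7-base matches were in *Nr6a1*, an orphan nuclear receptor, with 8 and a 1.43-fold lower level (interval of the ratio 0.606 to 0.808), and *Trim6* with 6 and a ratio of 0.675 (0.603 to 0.754). They were followed by genes with 4 each, of which *Hmga2*, *Igf2bp1* and *Trim71* are members, and *Hic2* (0.911), *Zbtb37* (0.703) and *D10Wsu102e* (0.751) are not. *Lin28b* also has 4 but too few UMIs to be compared. The matches were not scaled to length, and the 3′UTRs of *Zbtb37* and *D10Wsu102e* have 16999 and 122583 bases, against 4457 for *Nr6a1*.

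**Figure D5:**
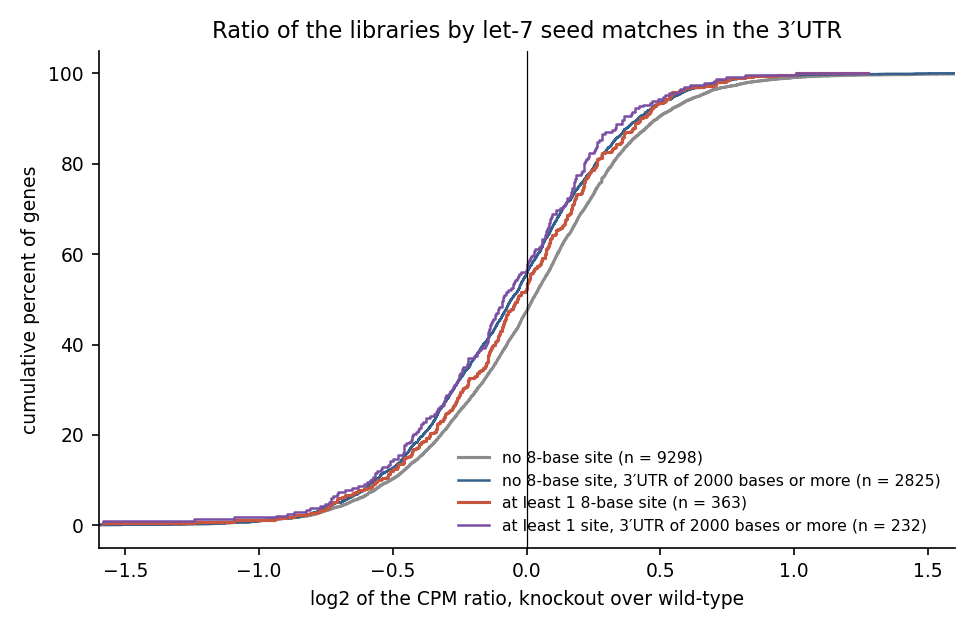
Cumulative percent of genes by log2 ratio of knockout over wild-type CPM in ES cells, for genes with and without an 8-base let-7 site in the 3′UTR, and for those with 3′UTRs of 2000 bases or more. Genes with a site (median -0.03) lay slightly left of those without (0.02), and the curves of long 3′UTRs lay close together.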

How the data were processed

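For 1 wild-type and 1 *Lin28a* knockout inDrop library the authors deposited UMI counts that were not normalized, made with a published inDrop pipeline and shallow barcodes included. Per the labels the build is mm10 and Seurat 2.3.4 was used. The aligner and annotation release are not given in the sources used here. Genes were named through GENCODE M21, which matched 54079 of 54146 identifiers. The libraries held 12079546 and 10027710 UMIs over 4329 and 6060 barcodes, which sets the counting intervals.

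Cells and fibroblasts were defined as in the results. UMIs were summed and scaled to CPM. Ratios of CPM have exact binomial-split intervals, and 0.5 was added to each count for calls over all genes. A call is 1.5-fold among genes with at least 100 UMIs. Where no UMI was seen, 3 counts set the upper bound. Shares at 500 or 1000 UMIs came from the hypergeometric distribution. 3′UTRs are the longest per gene in GENCODE M21. The calculation was tested on simulated data. Scrublet marked 27 of 1856 wild-type and 18 of 1622 knockout cells as doublets, which were kept and left out in an alternative.

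The members and gene lists were chosen with earlier results of these data known. Genes named are all members, in each list the 3 with the largest change at 200 or more UMIs and any past 1.5-fold, the 5 closest to *Lin28a*, and the 5 with most 7-base matches, with ties. *Ccnd1*, *Hras*, *Ccnd2*, *Tut4*, *Tut7* and the primed epiblast genes other than *Dnmt3b* were named after their values were seen. Some genes that this rule names are not reported here. Analyses used scanpy 1.11.5, scipy 1.17.1 and numpy 2.4.6 under Python 3.11.15.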

Additional observations from a re-analysis of the deposited data

Results flagged for a closer look

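The library ratio of 3 members with at least 5 fibroblast UMIs in each library was on the other side of 1 in fibroblasts than in ES cells. In fibroblasts the knockout library exceeded the wild-type, with ratios for *Igf2bp1* of 2.18 (1.28 to 3.65), for *Trim71* of 2.50 (1.10 to 5.48) and for *Igf2bp3* of 1.39 (0.676 to 2.70), where ES cells had 0.793, 0.858 and 0.835. *Lin28a* did the same at 2.50 (0.209 to 21.8) on 3 and 2 UMIs. Without the 1 knockout fibroblast that held most of these UMIs the ratios were 1.30 (0.626 to 2.52), 1.30 (0.377 to 3.63) and 0.801 (0.275 to 1.92). That cell had 0.167% of its UMIs on the 9 ES markers, against a median of 0.406% in knockout ES cells and 0% in knockout fibroblasts. The difference between the kinds of cell was not tested, since there is 1 wild-type and 1 knockout library.

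The ratio also went in opposite directions in ES cells of different RP share, at 1.43 for *Igf2bp1* and 1.74 for *Trim71* under 5%, against 0.746 and 0.870 from 10% up. This difference was not tested either.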

How the results depend on the processing

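The ratio of the libraries was recomputed for each of the 9 members under 12 alternatives, and for *Hmga1* with *Hmga1b* added, which was chosen after seeing the data. Of 109 such values 100 stayed within the counting interval of the value reported and 0 turned the direction of a member whose interval excluded 1. Many of these alternatives kept nearly the same cells or rescaled all genes, so agreement among them was largely built in. Classes of low RP share were not among them, and under 5% RP share *Igf2bp1* at 1.43 and *Trim71* at 1.74 turned direction. At 5000 to 10000 UMIs per cell the ratios were 0.267 for *Lin28a*, 0.320 for *Hmga2*, 0.749 for *Igf2bp1*, 0.775 for *Igf2bp3*, 0.766 for *Trim71* and 1.22 for *Hmga1*. Median of ratios scaling gave 1.08 for *Hmga1* and 0.758 for *Igf2bp1*, and leaving out cells under 5% RP share gave 0.765 for *Igf2bp1*. The number of members at least 1.5-fold lower ranged from 2 to 4. It was 2 with a minimum of 500 UMIs, which *Hmga2* does not reach, or a fold of 2, which *Igf2bp2* does not reach.

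The ratio of the shares of cells with a *Lin28a* UMI, 0.358 as observed, was 0.315 at 1000 UMIs per cell. For *Hmga1* the ratio of shares reversed, from 0.882 as observed to 1.10 at 500 and 1.05 at 1000 UMIs per cell, and the observed order of its shares goes against its CPM. Over all genes 951 were lower and 1084 higher by 1.5-fold. These counts, of 12223 genes, were 515 and 265 of 6127 with at least 500 UMIs and 6761 and 9743 of 36536 with at least 1. At a fold of 2 they were 179 and 198 of 12223. Median of ratios scaling gave 1201 lower and 836 higher, which turns the balance. The share of lower calls among genes with an 8-base site, 8.26% beside 7.33% of all genes with a 3′UTR, was 15.8% with 2 or more sites. That is 3 of 19 genes, and *Lin28a*, the gene knocked out, is among the 3. In 3′UTRs of 2000 bases or more the share of lower calls was 9.48% with and 9.13% without a site.

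Wild-type ES cells over fibroblasts, at 4.32 for *Hmga1*, 8.21 for *Igf2bp1* and 8.82 for *Trim71*, became 8.23, 13.0 and 23.3 with a collagen limit of 1%, and 5.91, 12.9 and 18.1 without fibroblasts of at least 0.2% ES markers, an alternative chosen after seeing the data. *Lin28a*, at 15.9, was 7.05 with a limit of 0.1% and 21.8 without those fibroblasts. In the knockout library the 1% limit moved *Igf2bp1* from 2.99 to 23.6 and *Trim71* from 3.03 to 22.9, on 16 fibroblasts. No paired analysis was possible because each genotype is 1 library. Fibroblasts and cells of low RP share are few or shallow, which limits every value given for them.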

Other observations

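The barcodes under 500 UMIs, 2472 of wild-type and 4423 of knockout origin, were not counted as cells and hold free RNA and shallow cells. *Lin28a* stood at 248 CPM (204 to 300) among the former and at 93.6 CPM (71.9 to 120) among the latter, 2.25 and 2.54 times the level of the ES cells. *Hmga2* was 2.31 and 3.46 times and *Trim71* 1.62 and 1.47 times as high there as in ES cells, whereas *Igf2bp1* was at 0.782 and 0.887 times. The ratio of the libraries in these barcodes was 0.377 (0.272 to 0.519) for *Lin28a* and 0.780 (0.659 to 0.923) for *Trim71*. It was 0.630 (0.365 to 1.09) for *Hmga2* and 1.28 (0.765 to 2.18) for *Igf2bp2*, and the interval of *Igf2bp2* lay above that of ES cells (0.516 to 0.684). The difference itself was not tested.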
